A study of Mus musculus with 8 samples.

Results

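Vomeronasal type 1 receptors are G protein-coupled receptors of the vomeronasal organ, the sensory epithelium in the nose through which mice read many chemical signals from other animals. Each sensory neuron of the apical layer of that organ expresses mainly 1 such receptor, which signals through the G protein subunit Gnai2 and the cation channel Trpc2. The genes have short, mostly single-exon coding regions, lie in clusters and have many close relatives, and they are not expected to be expressed in hippocampus. Their signal on a hippocampal array therefore describes the low end of the array, called the floor here. Members were the probe sets whose platform gene symbol is Vmn1r followed by a number alone, and 123 of 20985 probe sets met that rule, 1 per gene.

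Each of the 8 arrays carried hippocampal RNA of 1 untreated male mouse, 8 weeks old, and 4 of the mice were Kv10.1 -/- knockout and 4 Kv10.1 +/+ wildtype. Kv10.1 is a voltage-gated potassium channel encoded by Kcnh1, and the sources used here state neither the strain, nor the deleted part of the gene, nor whether the loss is limited to some cell types. Values are deposited log2 expression levels, with differences given as knockout minus wildtype, and the number of arrays limits their precision. A level depends on how strongly the probes of a set bind as well as on the amount of transcript, so an order of receptors is an order of array signal and not of RNA. In whole tissue, fewer cells of a type and less RNA per cell cannot be told apart.

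Kcnh1 fell by 0.99 on the log2 scale, from 9.34 ± 0.131 to 8.35 ± 0.062 (SD, n = 4 each; limma adjusted p = 0.00319), and it was the single probe set of 20985 past an adjusted p of 0.05. It still read 8.29 to 8.43 in knockouts and stayed above the floor on all 8 arrays. All 20 measured hippocampal markers, among them Prox1 of granule cells and Camk2a of excitatory neurons, lay well above the floor on all 8 arrays. By the bound given below, 60.1% of all probe sets were also above the floor. Markers of other brain regions were not set beside them, so the tissue label itself was not tested. The 2 arrays at the ends of the range of spreads were both wildtype. The interquartile range over all probe sets was 2.42 log2 units on wildtype 1 and 2.09 on wildtype 4, against 2.10 to 2.30 on the other 6. The mouse numbers in the sample titles were split here into a lower series, 3749 to 3753, and a higher, 3759 to 3763. The titles give the numbers and not the split, and what it stands for is not known. The lower series held wildtype 1, 2 and 3 and knockout 1, and the higher held wildtype 4 and knockout 2, 3 and 4.

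Of the 123 receptors, 109 have a start sequence in the RefSeq table for GRCm38.p6, and in 87 of these, as in all those shown, the gene model begins with ATG, while the other models begin elsewhere. The first 50 bases of the models are shown for the receptor with the highest signal, Vmn1r90, for the 5 receptors closest to it over those bases, and for a pair with very low signal. Capitals mark the longest run with the same base at the same position, in all 6 sequences of chromosome 7 and then in both of chromosome 6.
Vmn1r90 (chr7:14562122-14562171, minus strand): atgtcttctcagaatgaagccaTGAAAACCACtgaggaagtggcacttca
Vmn1r174 (chr7:23753911-23753960, plus strand): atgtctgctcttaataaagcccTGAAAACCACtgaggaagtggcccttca
Vmn1r183 (chr7:24054774-24054823, plus strand): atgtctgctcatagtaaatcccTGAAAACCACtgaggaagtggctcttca
Vmn1r175 (chr7:23809151-23809200, minus strand): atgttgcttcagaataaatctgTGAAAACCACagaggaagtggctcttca
Vmn1r170 (chr7:23606175-23606224, plus strand): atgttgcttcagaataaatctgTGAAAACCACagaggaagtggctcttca
Vmn1r176 (chr7:23835677-23835726, minus strand): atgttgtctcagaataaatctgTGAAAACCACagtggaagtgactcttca
Vmn1r35 (chr6:66679635-66679684, minus strand): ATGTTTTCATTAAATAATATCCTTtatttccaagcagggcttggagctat
Vmn1r37 (chr6:66731392-66731441, plus strand): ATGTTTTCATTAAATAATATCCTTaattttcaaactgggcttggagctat
Over these 50 bases Vmn1r90 had 44 in common with Vmn1r174 and 43 with Vmn1r183, where its median over the other members with a start sequence was 16. Vmn1r175 and Vmn1r170 had all 50 in common. The coordinates are those of the RefSeq table, since no source used here names a build for the array values.

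The receptors occupied a narrow band at the bottom of every array. Their median level was 5.57 on knockout 1, 5.63 on knockout 2, 5.61 on knockout 3 and 5.60 on knockout 4, and 5.50, 5.62, 5.57 and 5.72 on wildtype 1 to 4. The groups overlapped fully, with the lowest and the highest median both on wildtype arrays. Averaged over the 4 arrays of a genotype, the median was 5.60 ± 0.025 (SD) for knockouts and 5.60 ± 0.093 for wildtype. The median receptor stood between percentiles 3.86 and 4.63 of its array, where the median of all probe sets was 7.50 to 7.55. Between 65 and 72 of the 123 receptors lay below the 5th percentile of each array, and 95 to 101 below the 10th. On all 8 arrays, 85 stayed below the 10th percentile, 117 below the 25th and 122 below the median. Among the 209 probe sets with the lowest means, 1% of the total, 18 were members.

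**Figure D1:**
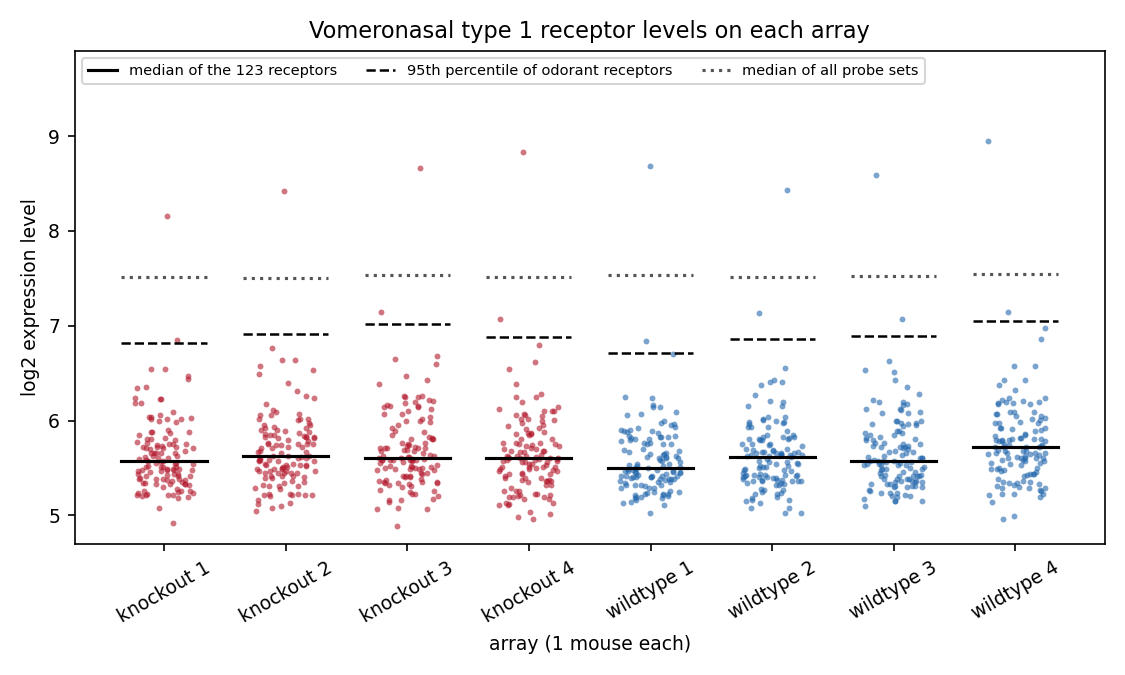
Log2 level of each of the 123 vomeronasal type 1 receptors (points) on each of the 8 arrays, with the receptor median, the 95th percentile of odorant receptors and the median of all probe sets as lines. The receptors gather around medians of 5.50 to 5.72, and 1 receptor, Vmn1r90, lies above the median of all probe sets on every array.

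Within the band, 102 receptors had a mean level from 5 to below 6 and 21 a mean above 6. The interquartile range over receptors was 0.43 to 0.52 log2 units per array, about as wide on knockout as on wildtype arrays. Receptors at the middle of the list were Vmn1r202, Vmn1r232, Vmn1r46 and Vmn1r52, all with means of 5.60. Vmn1r232 ran from 5.48 to 5.70 over the 8 arrays. The lowest were Vmn1r35, Vmn1r37, Vmn1r28 and Vmn1r210, with means of 5.10 to 5.17, the first 3 of them from the cluster on chromosome 6. Vmn1r35 read 4.92, 5.20, 5.08 and 5.13 on knockout 1 to 4 and 5.26, 5.03, 5.17 and 4.99 on wildtype 1 to 4. It was lowest on a knockout array and highest on a wildtype one, and the groups overlapped.

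The other chemosensory receptor families lay at similar or somewhat higher signal. Odorant receptors, the Olfr genes of the main olfactory epithelium, had a median level of 5.91 over 1062 probe sets. Vomeronasal type 2 receptors (57, median 5.64), taste receptors (38, 5.81), trace amine-associated receptors (14, 5.88) and vomeronasal formyl peptide receptor relatives (4, 5.70) had medians between those of the type 1 and the odorant receptors. The median of the type 1 receptors was below that of the odorant receptors on 8 of 8 arrays, by 0.27 to 0.37 log2 units. Genes of liver, testis, muscle and other tissues, such as Alb (5.97) and Prm1 (7.22), had a higher median of 6.62 over 25 probe sets. The hippocampal markers had a median of 10.19.

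**Figure D2:**
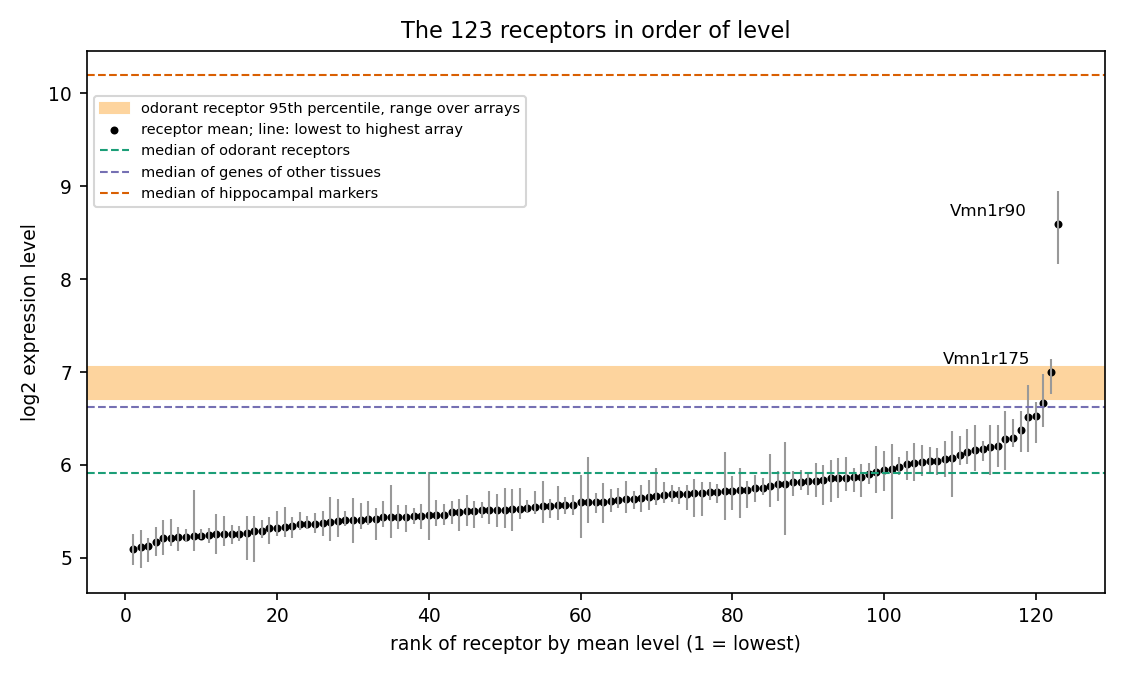
Mean log2 level over the 8 arrays of each receptor in order of level (points) with its lowest and highest array (vertical lines), beside the medians of odorant receptors, genes of other tissues and hippocampal markers (dashed) and the range over arrays of the odorant receptors' 95th percentile (band). Vmn1r90 at 8.59 stands clear of the others, and Vmn1r175 at 7.0 lies in the band.

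A receptor was called above the floor where it exceeded the 95th percentile of the odorant receptors on every array, a bound of 6.71 to 7.05. By that rule 1 of 123 receptors, Vmn1r90, was above the floor, or 0.813% of members. The share was 60.1% of all probe sets and 24.0% of the genes of other tissues. The latter included Gh, which read 9.13 on wildtype 1 and 8.93 on wildtype 3 against 7.08 to 7.83 on the other arrays. Whether the signal of these genes was background or transcript was not tested. Among odorant receptors it was 3.11%, but the bound is their own 95th percentile. Their share was thus held low in advance and is no comparison for the members.

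Vmn1r90 read 8.16, 8.42, 8.66 and 8.83 on knockout 1 to 4 and 8.68, 8.43, 8.59 and 8.95 on wildtype 1 to 4. It cleared the bound by at least 1.34 log2 units on each array and stood between percentiles 62.6 and 78.8 of all probe sets. Vmn1r90 is thus an exception to the use of these receptors as a floor. The genotypes overlapped, with a knockout mean of 8.52 ± 0.292 and a wildtype mean of 8.66 ± 0.218 (SD over 4 mice). Its difference of -0.15 ± 0.150 (SE; limma adjusted p = 0.997) was -0.03 without knockout 1, -0.05 without wildtype 4, -0.22 without wildtype 2 and -0.25 without knockout 4. Blocking on the mouse number series gave -0.36 (limma adjusted p = 0.861), so its size rested on single arrays and on how the series was treated. Vmn1r90 also carries the older name B430211C08Rik, of the kind given to RIKEN cDNA clones, and no V1R subfamily name in the gene table. In the gene order of GRCm38.p6 its nearest measured neighbours are Obox7, a homeobox gene, at 5.57 on one side and Sult2a8, a sulfotransferase gene, at 5.55 on the other, both inside the receptor band.

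Vmn1r175 had the next level, 1.59 log2 units lower. It read 6.85, 6.76, 7.14 and 7.07 on knockout 1 to 4 and 6.84, 7.13, 7.07 and 7.14 on wildtype 1 to 4. It exceeded the bound on 7 of 8 arrays and missed it on knockout 2, where the bound was 6.91, so without that array it also counted as above the floor. Vmn1r170, which has the same first 50 bases, read 5.24 to 5.50 over the 8 arrays and did not overlap with it. Vmn1r176, its neighbour in the gene order, read 5.32 to 5.75. The level of Vmn1r175 thus stood apart from those of its closest relatives, and the sharing of probes between relatives was not tested.

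Below them came Vmn1r213 (6.67), Vmn1r183 (6.52), Vmn1r193 (6.52), Vmn1r1 (6.38), Vmn1r75 (6.29) and Vmn1r233 (6.28), from chromosomes 13, 7, 13, 1, 7 and 17. Vmn1r213 stayed at or below the bound on every array, with its highest value, 6.98, on wildtype 4, and 6.70 on wildtype 1, where the bound was 6.71. These 6 receptors belonged to different subfamilies or to none by name. Vmn1r183 had 43 of its first 50 bases in common with Vmn1r90 and 41 with Vmn1r175, the receptors with the highest and next highest levels. Vmn1r174 (46 in common with Vmn1r183, level 6.07), Vmn1r170 (41, 5.325) and Vmn1r176 (40, 5.52) were also close to it and lay lower. A part of relatedness in these levels was not tested.

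**Figure D3:**
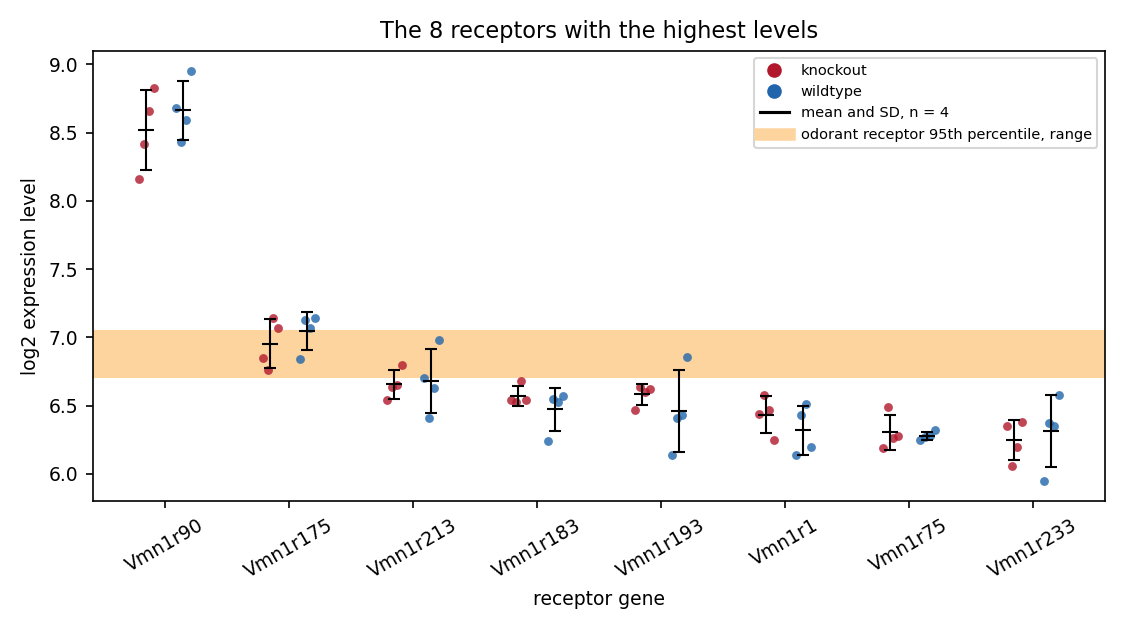
Log2 levels of the 8 receptors with the highest means on knockout (red) and wildtype (blue) arrays, with mean and SD (n = 4 each) in black and the range of the odorant receptor bound as a band. Knockout and wildtype values overlap for each receptor, and Vmn1r90 is the single one above the band on all 8 arrays.

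By synonyms in the gene table, 117 of the 123 receptors could be placed in subfamilies named V1ra to V1rk, and 6 could not. In 4 genes the synonyms named more than 1 subfamily, and the first name spelled V1r with a lower-case letter was taken, which put Vmn1r89 (also V1RE8) in V1rj, Vmn1r70 (also V1rl1) in V1rd, and Vmn1r50 (also V1RA5) and Vmn1r44 (also V1RA10) in V1rb. Subfamily V1rc, 28 genes on chromosome 6, had the lowest median among subfamilies with more than 1 gene, 5.41. The highest median, 5.90, was that of V1rj, whose 2 genes Vmn1r89 (5.95) and Vmn1r85 (5.86) encode receptors for sulfated oestrogens. V1ra and V1rb, neighbours on chromosome 6 whose joint deletion alters social behaviour in mice, had medians of 5.61 over 8 genes and 5.55 over 6. V1rd (16 genes, 5.83), V1rf (5, 5.69), V1rg (11, 5.71), V1rh (18, 5.59), V1re (13, 5.55) and V1ri (9, 5.86) lay between. Single V1rc genes ran from 5.10 to 6.17, and both V1rj genes lay inside that range, so the subfamilies overlapped in level. By chromosome, medians were 5.48 for 42 genes on 6, 5.72 for 39 on 7, 5.69 for 27 on 13 and 5.68 for 14 on 17, with Vmn1r1 alone on chromosome 1. Binding strength of probes differs between sequences and was not tested as a part of these spans.

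The lowest and the highest floor were on the arrays at the ends of the range of spreads. Wildtype 1, with the widest interquartile range of 2.42, had the lowest receptor median, 5.50, and wildtype 4, with the narrowest of 2.09, the highest, 5.72. The odorant receptors moved alike, from 5.80 on wildtype 1 to 6.0 on wildtype 4. Knockout 1, with the next widest range of 2.30, tied with wildtype 3 for the next lowest receptor median, 5.57. The type 1 receptor medians of the arrays between did not follow that order. Knockout 3, with the next narrowest range of 2.10, had a receptor median of 5.61, below those of knockout 2 (2.19) and wildtype 2 (2.21). The odorant receptor median kept closer to the order, at 5.98 on knockout 3, 5.93 on knockout 2 and 5.89 on wildtype 2. Knockout 4 (2.14), at 5.90, lay below knockout 2 in that family. Of the 123 receptors, 44 had their highest value on wildtype 4 alone, against 18.1% of all probe sets. On wildtype 1 alone 38 had their lowest, against 25.6% of all probe sets. As a share of the 123, the second count was nearer to that of all probe sets than the first. After repeated quantile normalization, which makes all array distributions equal, the 8 receptor medians ran from 5.57 to 5.64, a range of 0.061 in place of 0.220.

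**Figure D4:**
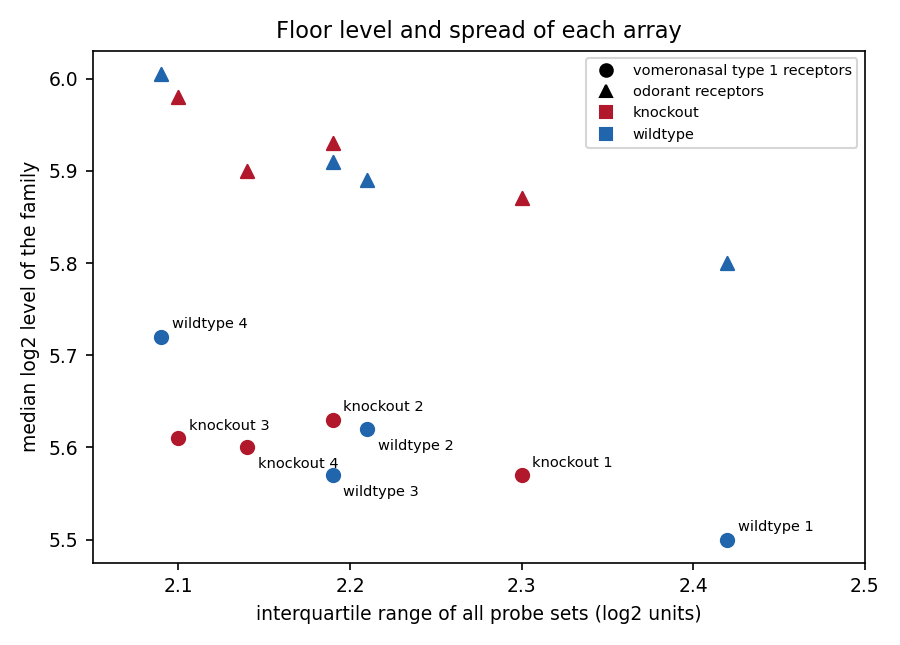
Median log2 level of vomeronasal type 1 receptors (circles, labelled) and odorant receptors (triangles) on each array against the interquartile range of all probe sets on that array. Both family medians are lowest on wildtype 1, with an interquartile range of 2.42, and highest on wildtype 4, with 2.09.

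Nearly all of the spread of single receptors remained after the floor of each array was taken off. The median SD of a receptor over the 8 arrays was 0.106 as deposited and 0.102 after subtraction of the odorant receptor median, and it rose in 53 of 123 receptors. Over all probe sets it was 0.133 and 0.140. Over the 7503 pairs of receptors the median Pearson correlation across arrays was 0.17 as deposited and 0.05 after that step, a description over 8 arrays that all pairs share. The steadiest were Vmn1r66, Vmn1r14, Vmn1r4 and Vmn1r16, with SDs of 0.038 to 0.048. Vmn1r66 read 5.20 to 5.26 on knockout arrays and 5.20 to 5.31 on wildtype ones.

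The least steady were Vmn1r48, Vmn1r222, Vmn1r90 and Vmn1r45, with SDs of 0.231 to 0.322. Vmn1r48 read 5.49, 5.85, 6.25 and 5.91 on knockout 1 to 4 and 5.25, 5.64, 5.95 and 6.05 on wildtype 1 to 4. Its values were lowest on wildtype 1 and knockout 1, the arrays with the widest interquartile ranges, and the genotypes overlapped. Vmn1r45 was 5.92 on wildtype 4 against 5.19 to 5.59 on the other 7 arrays. Vmn1r46, also on chromosome 6, was 6.09 on wildtype 4 against 5.38 to 5.69 elsewhere.

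No receptor passed the test between genotypes. Of 123 members, 0 had a limma adjusted p under 0.05, against 0.00477% of all probe sets, and 1 had an unadjusted p under 0.05, or 0.813%, against 3.16% of all probe sets. That receptor was lower in knockouts, where the share of all probe sets was 1.53%, and 0 receptors were higher, where it was 1.63%. Groups that did not overlap were found for 0 receptors, against 2.16% of all probe sets, of which 0.967% were higher and 1.19% lower in knockouts. Differences ran from -0.215 to 0.22 with a median of 0.015, 69 above and 54 below 0, and over all probe sets the median was -0.0025. Of all probe sets, 10084 were above and 10680 below 0, and of the odorant receptors 618 and 430. The central part of the members' differences, between quartiles, ran from -0.045 to 0.059, against -0.07 to 0.06 over all probe sets. The median without single mice ran from -0.013 to 0.039.

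**Figure D5:**
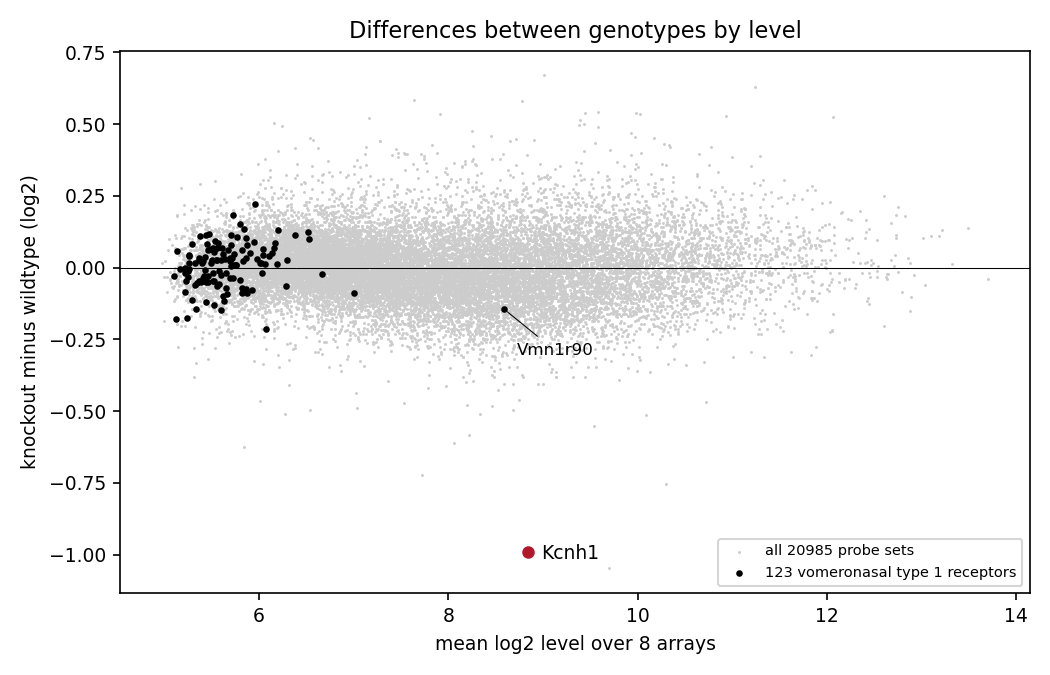
Knockout minus wildtype difference on the log2 scale against the mean log2 level for all probe sets (grey) and the 123 receptors (black), with Kcnh1 in red. Apart from Vmn1r90 at 8.59, the receptors lie at the low end, with differences from -0.215 to 0.22, and Kcnh1 is at -0.99.

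The precision of these differences sets a limit on what could be seen. The median standard error was 0.082 for receptors and 0.092 for all probe sets, and the median 95% interval of a receptor reached 0.182 log2 units to each side. The interval that reached farthest from 0 was that of Vmn1r48, whose upper end was 0.57, a 1.49-fold difference. Differences smaller than 0.1 in size were read for 98 of 123 receptors. Apart from Vmn1r90, these are differences of signal near the floor, where a change of transcript may be understated, which was not tested.

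The receptor with the smallest p was Vmn1r37, 1 of the 4 lowest in level. It read 5.18, 5.05, 4.89 and 5.01 in knockouts and 5.16, 5.13, 5.30 and 5.26 in wildtype mice. Knockout 1 lay above 2 of the wildtype values, so the groups overlapped, and the difference was -0.18 with a 95% interval from -0.36 to -0.0015 (limma adjusted p = 0.997, unadjusted p = 0.0484). Vmn1r35, with 46 of 50 bases in common with it, differed by -0.03.

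Among receptors with higher signal in knockouts, Vmn1r222 had the largest difference. It read 6.23, 5.83, 6.21 and 6.0 in knockouts and 5.42, 5.82, 5.96 and 6.18 in wildtype mice, a difference of 0.22 ± 0.153 (SE; limma adjusted p = 0.997). Wildtype 1 was the lowest of the 8, and without it the difference was 0.08. Vmn1r226 (0.12), Vmn1r217 (0.135), Vmn1r67 (0.11), Vmn1r58 (0.185) and Vmn1r49 (0.115) had the other smallest p among higher receptors, with limma adjusted p of 0.997 each. Vmn1r49 encodes a receptor that responds to the urinary ketone 2-heptanone. It read 5.46, 5.42, 5.55 and 5.57 in knockouts and 5.31, 5.37, 5.42 and 5.44 in wildtype mice, with an overlap at knockout 2. Vmn1r58 was 0.08 without knockout 3 and 0.29 without knockout 1, and Vmn1r217 was 0.07 without wildtype 1. With the series as a block, Vmn1r58, Vmn1r217 and Vmn1r67 were each at 0.03, Vmn1r226 was 0.075, Vmn1r49 was 0.083 and Vmn1r222 was 0.165.

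Among receptors with lower signal in knockouts, Vmn1r174 had the largest difference. It read 5.66, 5.95, 6.15 and 6.10 in knockouts and 5.93, 6.20, 6.22 and 6.37 in wildtype mice, a difference of -0.215 ± 0.124 (SE; limma adjusted p = 0.997), or -0.11 without knockout 1 and -0.38 after blocking on the mouse number series (limma adjusted p = 0.861). Knockout 1 was the lowest, and wildtype 1 lay below 3 knockouts. The other receptors among the smallest p on this side, beside Vmn1r37, were Vmn1r6 (-0.14), Vmn1r5 (-0.12), Vmn1r225 (-0.13) and Vmn1r42 (-0.10), with limma adjusted p of 0.997 each. Blocking gave -0.21 for Vmn1r225, and without wildtype 4 Vmn1r6 was -0.095.

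Differences by subfamily followed no shared direction over the family. All 6 V1rb genes were above 0 with a median of 0.05, as were 10 of 11 V1rg genes (0.02) and 8 of 9 V1ri genes (0.04), while 17 of 28 V1rc genes were below 0 (-0.03). V1ra had 3 above and 5 below 0, V1rd 10 and 6, V1re 5 and 8, V1rf 4 and 1, and V1rh 9 and 9. Genes of a subfamily share sequence and cluster and are not independent, and these counts were not tested. The series of mouse numbers was unevenly spread over the genotypes. Within the lower series the receptor median was 5.57 on the knockout array and 5.50 to 5.62 on the 3 wildtype arrays. Within the higher it was 5.60 to 5.63 on the 3 knockout arrays and 5.72 on the wildtype array. With the series as a block the median difference was -0.03.

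Other genes of vomeronasal and olfactory sensory neurons showed no difference past the test either. Of 22 listed genes, all measured, 0 passed, 15 were above and 7 below 0, and the median difference was 0.03. Over all probe sets 10084 were above and 10680 below 0. By level, 14 of the 22, or 63.6%, were above the floor, near the 60.1% of all probe sets. Trpc2, the channel on which vomeronasal signalling depends, read 7.24 to 7.37 in knockouts and 7.26 to 7.38 in wildtype mice, above the floor on all 8 arrays. Its level was near those of Lor (7.36) and Prm1 (7.22), among the 6 of 25 genes of other tissues above the floor on all 8 arrays. A bound from genes of other tissues was 7.28 to 7.50, and the lowest Trpc2 value lay below it. Whether Trpc2 is expressed in hippocampus was not tested. Omp, the marker of mature olfactory and vomeronasal neurons, read 6.49 to 6.77 over the 8 arrays and was not above the floor on any. Cnga2, the channel subunit of odorant signalling, read 5.79 to 6.04, also below the bound throughout.

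The G protein subunits of vomeronasal neurons are also used widely in brain, and Gnai2 (10.83) and Gnao1 (12.46) lay far above the floor. The gamma subunits Gng13 (7.17) and Gng8 (7.05) lay near the bound, Gng13 above it on 8 of 8 arrays and Gng8 on 4 of 8. The smallest p in the list belonged to Ncam2 (0.15), an adhesion gene of olfactory axons, Gng8 (-0.25), Cnga2 (0.095), the homeobox gene Meis2 (0.16), the adenylyl cyclase gene Adcy3 (-0.175) and the chloride channel gene Ano2 (0.23), all with limma adjusted p of 0.997. Gng8 was 7.43 on wildtype 1 and 7.63 on wildtype 4 against 6.78 to 7.01 elsewhere, and Ano2 was 8.14 on knockout 3 against 6.83 to 7.45 elsewhere. Without wildtype 1 the difference of Adcy3 was -0.029 and that of Meis2 0.26, and without knockout 4 that of Meis2 was 0.27. Gng8 was -0.094 without wildtype 4, and Ano2 was -0.028 without knockout 3. Of 14 listed lipocalins and peptides that carry or act as chemical signals, 6 were measured, among them Mup3 (5.66), Obp1a (5.52) and Esp1 (6.14). None of these 6 was above the floor and none passed the test.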

How the data were processed

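RNA of 8 hippocampi was measured on Affymetrix arrays, biotin-labelled as sense-strand DNA from 100 ng of total RNA per the labels' protocols. The deposited values are log2 levels, 1 per probe set and array, made by the authors with RMA and limma in R 2.9, per the submitters' processing notes. The sources used here state no settings, build or version of the probe set definition, and detection calls were not analysed here. Replicate numbers follow accession order and pair nothing.

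Members were matched through the platform annotation, which names 19921 of 20985 probe sets. All 123 were found under the same symbol in the GRCm38.p6 gene table, and 3 probe sets under older or pseudogene names (V1ra8, V1rd19 and Vmn1r-ps103) were not members. All probe sets entered 1 fit of genotype with lmFit and eBayes (R 4.3.3, limma 3.58.1), two-sided with Benjamini-Hochberg adjustment, checked on simulated data. The floor bound was the 95th percentile of Olfr probe sets on each array. Named receptors were the 8 highest, 4 lowest and 4 nearest the median, those above the floor, the 6 smallest p each way, and the 4 largest and smallest SDs. Vmn1r170, Vmn1r176, Vmn1r85 and Vmn1r89 were added after their values were seen. Identity was counted base by base without gaps over the first 50 bases. The rule for pairs by protein identity was not run. Members and lists were chosen with earlier results of these data known. Alternatives were median centring, quantile normalization applied again, leaving out the dimmest 25%, a block for the series of mouse numbers, other eBayes options and array weights, other bounds, and each mouse left out. Equal Olfr medians and the removal of pairs of arrays were added after seeing the data.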

Additional observations from a re-analysis of the deposited data

Results flagged for a closer look

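In each group of 4 arrays, a value was picked out when its gap to the nearest other value exceeded Dixon's critical share of the range of the group. Over 90 such groups, 8 were picked out. For independent normal values the nominal rate is about 1 in 20. These groups include receptors named for extreme level, spread or p, and their values are rounded, so that rate is not the chance rate here. Vmn1r183 was picked out in both genotypes, at 6.68 on knockout 3 against 6.53 to 6.54 in the other knockouts, and at 6.24 on wildtype 1 against 6.53 to 6.57. Vmn1r46 read 6.09 on wildtype 4 against 5.38 to 5.49, and Vmn1r4 read 5.32 there against 5.24 to 5.25. Vmn1r52 read 5.21 on knockout 1 against 5.60 to 5.67. Vmn1r14 read 5.31 on wildtype 3 against 5.22 to 5.23. Cnga2 read 6.04 on knockout 4 against 5.90 to 5.91. The receptor median minus the odorant receptor median was -0.37 on knockout 3 and -0.30 on the other 3 knockouts.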

How the results depend on the processing

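No member passed in any of the 18 alternative fits, where 0 to 6 of 123 had an unadjusted p under 0.05, the 6 with array weights, where 1261 of 20985 probe sets did. The count over all probe sets was 2 with repeated quantile normalization and 2 with array weights, Tatdn3 joining Kcnh1, and 1 in the other fits, also without any single mouse. With the dimmest 25% left out, 3 members remained, with a median difference of -0.09. The level of the family was 5.68 as a mean over members. Members above the floor were 2 with the bound at the 90th percentile and 2 by mean level, Vmn1r175 joining Vmn1r90, and 1 to 2 without single mice, 2 without knockout 2. They were 1 with the bound at the 99th percentile, from Vmn2r and taste receptors or from genes of other tissues. Without both wildtype 1 and wildtype 4 the difference of Vmn1r90 turned to 0.0075 and that of Gng8 to 0.11, with the series as a block that of Adcy3 to 0.0067, and without knockout 3 that of Ano2 to -0.028, the lowest without single mice, where it ran up to 0.36 without knockout 4. The cause was not tested. No paired analysis was possible because the labels give no pairing of mice. Signal over background was not analysed here, so levels near the floor give no amount of transcript.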
